A study of Mus musculus with 3 samples.

Results

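The genes described here are 10 broadly expressed metabolic and ribosomal genes of the mouse X chromosome, Hprt, Pgk1, G6pdx, Pdha1, Gla, Lamp2, Rps4x, Rpl10, Ogt and Ubl4a. They were chosen by name, with earlier results of these data known, out of 1255 protein-coding and long noncoding genes placed on the chromosome by RefSeq. Each gene was read out by the LSD1 chromatin reads at listed single-base differences between the B6 (reference) base and a variant base, within the gene body and 5 kb on both sides. Of those 1255 genes, 1079 had at least 30 reads in MEF or LowK, and all 10 housekeeping genes were among them.

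The study immunoprecipitated chromatin with an antibody against LSD1 (Kdm1a) and sorted the reads on chromosome X by allele. MEF is a library from mouse embryonic fibroblasts at day 0. LowK is a library from MEF carrying the vector SeVdp(fKOSMaB), a Sendai virus vector used for reprogramming, at day 20 without Shield1, and MidK is one from such cells at day 20 with 30 nM Shield1, a small molecule that protects proteins carrying a destabilising domain from degradation. Each group holds 1 library, and the labels used here give no strain, sex, number of animals or number of cultures, so no p-value was computed and no difference has a replicate check. Input chromatin was not analysed here, and read shares therefore give coverage, not enrichment. Chromatin reads do not measure expression, and the labelled cell types could not be checked against marker genes. Reads by allele totalled 883058 for MEF, 295240 for LowK and 203350 for MidK.

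LSD1 removes methyl groups from histone lysines and acts in complexes with deacetylases and other cofactors, at promoters and at enhancers. Housekeeping genes are transcribed in nearly all cell types and commonly start within CpG islands, stretches rich in the dinucleotide CG. In female mammals most X-linked genes of this kind are silenced on the inactive X chromosome, and Hprt, Pgk1 and G6pdx have long served as reporters of X inactivation and reactivation.

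The promoters of 5 of the genes are shown (Hprt, Ubl4a, G6pdx, Pdha1 and Rpl10), those with the highest LowK share of reads near the start apart from Rps4x. Each runs from 250 bases before to 50 after the annotated start, 5′ to 3′ on the strand of the gene, from RefSeq assembly GRCm38.p6. Capitals mark positions at which at least 1 library listed a variant.
Hprt (chrX:52987828-52988127, plus strand): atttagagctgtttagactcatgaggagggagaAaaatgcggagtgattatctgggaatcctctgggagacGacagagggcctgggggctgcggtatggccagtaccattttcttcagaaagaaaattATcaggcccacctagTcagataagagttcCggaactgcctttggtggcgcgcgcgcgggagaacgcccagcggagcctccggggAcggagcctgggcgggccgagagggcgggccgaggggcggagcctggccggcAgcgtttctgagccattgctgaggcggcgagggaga
Ubl4a (chrX:74368499-74368798, minus strand): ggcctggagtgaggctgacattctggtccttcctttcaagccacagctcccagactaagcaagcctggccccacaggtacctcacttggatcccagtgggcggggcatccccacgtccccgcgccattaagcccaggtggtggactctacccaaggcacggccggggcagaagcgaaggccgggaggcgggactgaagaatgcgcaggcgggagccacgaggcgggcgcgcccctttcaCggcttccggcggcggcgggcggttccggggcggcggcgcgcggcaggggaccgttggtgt
G6pdx (chrX:74428831-74429130, minus strand): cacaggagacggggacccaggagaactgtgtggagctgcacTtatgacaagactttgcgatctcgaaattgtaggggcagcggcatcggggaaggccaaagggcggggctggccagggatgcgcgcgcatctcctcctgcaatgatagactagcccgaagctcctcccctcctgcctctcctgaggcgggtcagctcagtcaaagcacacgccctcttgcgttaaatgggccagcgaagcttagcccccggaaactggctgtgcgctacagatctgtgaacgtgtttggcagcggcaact
Pdha1 (chrX:160138381-160138680, minus strand): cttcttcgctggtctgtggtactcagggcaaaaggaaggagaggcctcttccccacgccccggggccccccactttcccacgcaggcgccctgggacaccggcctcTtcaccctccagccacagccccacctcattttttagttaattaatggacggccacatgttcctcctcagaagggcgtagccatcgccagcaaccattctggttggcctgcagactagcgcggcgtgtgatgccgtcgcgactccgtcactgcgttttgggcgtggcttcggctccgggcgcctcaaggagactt
Rpl10 (chrX:74270566-74270865, plus strand): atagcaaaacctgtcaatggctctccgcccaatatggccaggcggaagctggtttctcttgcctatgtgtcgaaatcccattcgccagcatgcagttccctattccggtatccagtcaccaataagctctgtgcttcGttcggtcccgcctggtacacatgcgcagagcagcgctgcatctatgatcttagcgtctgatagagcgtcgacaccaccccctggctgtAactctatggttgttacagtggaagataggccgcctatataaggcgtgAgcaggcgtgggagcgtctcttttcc

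Counted from 1 at the 5′ end of the printed stretch, with the B6 base first and the variant base last, Hprt held 8 listed changes, from A34G and G72T far upstream to A265G just inside the transcript. A265G was the promoter position listed in all 3 libraries, with 2 variant reads in MEF, 3 variant and 1 B6 in LowK and 1 variant in MidK. The neighbouring pair A129C and T130C was listed in LowK and MidK, with 1 B6 and 2 variant reads in LowK at both positions and 2 variant reads in MidK. G6pdx had T42C, with 3 variant reads in LowK alone. Pdha1 had T107C, with 2 variant reads in LowK and 1 in MidK. Rpl10 had G138T in MEF (3 variant reads) and A227G and A275C in LowK (2 each), and Ubl4a had C240T in MEF with 3 reads of each allele. Promoters of Pgk1 and Ogt held no listed position, so coverage there cannot be seen in these lists.

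The 10 promoters were rich in CG. They held 10 (Lamp2) to 28 (Ubl4a) CG dinucleotides with a median of 19, against a median of 6.5 over the 1046 chromosome X promoters in the table. At least 10 were held by 38.1% of those 1046. The motif shares that follow are not matched for CG count. Searched on both strands, the GC box letters GGGCGG were in 9 of the 10, all but Pdha1, and in 32.8% of the 1036 other promoters. The CCAAT letters were in 5 of 10 (46.4% of the others), and TATAAA was in 0 of 10 (14.8%). GCGCATG, part of the NRF1 site, was found in Ogt and Rpl10 (4.34% of the others). The ETS letters CCGGAAG were found in Ubl4a (7.05%), and the YY1 letters ATGGCGG in Ogt (4.15%). These are letter matches and not tested binding sites.

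Summed over the 10 genes, the part of the library taken by LSD1 coverage was highest in LowK and lowest in MidK. The sums were 2412 reads at 1025 sites in MEF, 949 reads at 549 sites in LowK and 489 reads at 260 sites in MidK. Per 10000 reads by allele this was 27.3, 32.1 and 24.0. Depth was low, since 41.6%, 60.3% and 62.7% of these sites had a single read. Only 25 positions were listed in all 3 libraries, 8 of them at Ubl4a, 6 at Hprt and 5 at Pdha1. MEF and LowK shared 162 positions, 15.8% of the MEF sites and 29.5% of the LowK sites. Since listed sites can share a read, reads are not independent counts, and the 95% intervals given below (exact Poisson for levels and ratios, Clopper-Pearson for shares) cover counting error only and are too narrow.

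Levels are given in reads per 10000 reads by allele over the window. They are compared within a gene, since the density of listed positions differs between genes (2.28 per kb at Ogt to 4.99 per kb at Ubl4a in MEF). On this scale the median gene of the chromosome lay at log2 0.09 for LowK over MEF, -0.44 for MidK over MEF and -0.56 for MidK over LowK. A low MidK level is therefore not particular to these genes. How often level intervals lie apart over all genes was not computed. Among the genes of nucleotide and carbon metabolism, Hprt (X, 52988078 to 53021660, plus strand) encodes the purine salvage enzyme hypoxanthine phosphoribosyltransferase. MEF had 449 reads there, LowK 133 and MidK 123, or 5.08 (4.63 to 5.58), 4.50 (3.77 to 5.34) and 6.05 (5.03 to 7.22) per 10000. MidK was the highest, and its interval overlapped those of both other libraries. Pgk1 (X, 106187100 to 106203699, plus strand), an ATP-forming enzyme of glycolysis, had 194, 78 and 35 reads, or 2.20, 2.64 and 1.72 per 10000, with overlapping intervals in all 3.

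G6pdx (X, 74409483 to 74428880, minus strand) encodes the NADPH-forming first enzyme of the pentose phosphate pathway. Its reads numbered 160 in MEF, 108 in LowK and 18 in MidK, or 1.81 (1.54 to 2.12), 3.66 (3.0 to 4.42) and 0.885 (0.525 to 1.40) per 10000. The intervals of the 3 libraries did not overlap, with LowK the highest and MidK the lowest. Relative to the median gene, the G6pdx ratio of MidK over MEF had an interval that held 1 (0.664, 0.384 to 1.08). Pdha1 (X, 160122219 to 160138430, minus strand), the alpha subunit of the pyruvate dehydrogenase that feeds acetyl-CoA into the citric acid cycle, had 244, 102 and 78 reads, or 2.76, 3.45 and 3.84 per 10000. Both day 20 libraries lay above MEF there, with overlapping intervals.

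Both lysosomal genes had their lowest level in MidK. Gla (X, 134588169 to 134601005, minus strand), the lysosomal enzyme alpha-galactosidase A, had 200, 89 and 22 reads, or 2.26 (1.96 to 2.60), 3.01 (2.42 to 3.71) and 1.08 (0.678 to 1.64) per 10000. Lamp2 (X, 38399647 to 38456460, minus strand), a lysosomal membrane protein of autophagy, had 537, 131 and 66 reads, or 6.08 (5.58 to 6.62), 4.44 (3.71 to 5.27) and 3.25 (2.51 to 4.13). MEF lay above both day 20 libraries at Lamp2 with no overlap of the intervals, whereas at Gla only MidK stood apart from the others. Relative to the median gene, the Gla ratio of MidK over MEF had an interval that held 1 (0.649, 0.398 to 1.01).

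The ribosomal protein genes are short and rest on few reads. Rps4x (X, 102184941 to 102189391, minus strand), a protein of the small ribosomal subunit, had 114, 41 and 12 reads, or 1.29 (1.06 to 1.55), 1.39 (0.997 to 1.88) and 0.590 (0.305 to 1.03) per 10000. Rpl10 (X, 74270816 to 74273135, plus strand), a protein of the large subunit, had 65, 44 and 17 reads, or 0.736 (0.568 to 0.938), 1.49 (1.08 to 2.0) and 0.836 (0.487 to 1.34). Rpl10 was higher in LowK than in MEF, and at Rps4x the MidK level was the low one.

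Ogt (X, 101640011 to 101684351, plus strand) encodes the enzyme that adds N-acetylglucosamine to nuclear and cytoplasmic proteins. With 276, 140 and 90 reads, it had 3.13 (2.77 to 3.52), 4.74 (3.99 to 5.60) and 4.43 (3.56 to 5.44) per 10000, so both day 20 libraries were above MEF with no overlap of the intervals. Ubl4a (X, 74365718 to 74368548, minus strand), a ubiquitin-like protein that helps deliver tail-anchored membrane proteins, had 173, 83 and 28 reads, or 1.96 (1.68 to 2.27), 2.81 (2.24 to 3.48) and 1.38 (0.915 to 1.99). It was highest in LowK. The MEF interval overlapped both of the others, and those of LowK and MidK did not overlap. Relative to the median gene, the Ubl4a ratio of MidK over LowK had an interval that held 1 (0.722, 0.452 to 1.12).

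**Figure D1:**
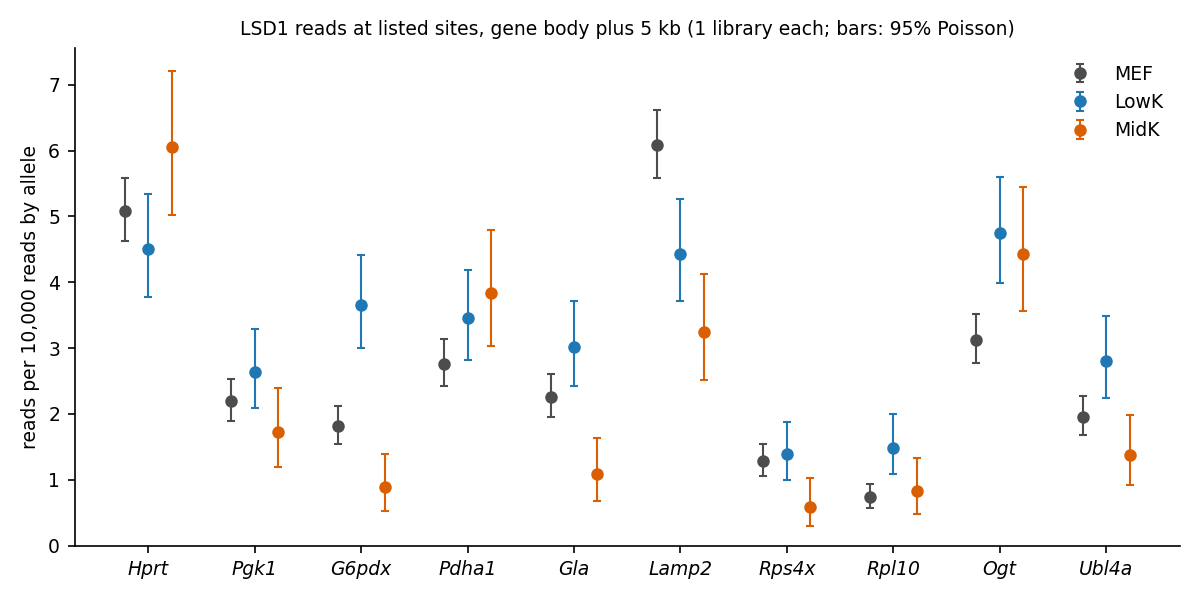
LSD1 reads per 10000 reads by allele (y axis) at listed sites within the gene body plus 5 kb of each of the 10 genes (x axis), 1 point per library with its 95% Poisson interval. The 3 libraries stand apart at G6pdx (1.81, 3.66 and 0.885), and MEF lies above both day 20 libraries at Lamp2 (6.08 against 4.44 and 3.25). These levels are not set relative to the median gene, and how often intervals lie apart over all genes was not computed.

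To compare libraries, each ratio of read shares was set relative to the median gene of the chromosome, and a gene was called different at 2-fold or more with an interval that excluded 1 and at least 30 reads in 1 of both libraries. Scaled to library totals instead, the median gene lay at log2 0.09 for LowK over MEF, -0.44 for MidK over MEF and -0.56 for MidK over LowK. The 3 comparisons share libraries and are not independent of each other.

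Between LowK and MEF, 0 of the 10 genes were called, against 7.51% of 1079 genes called higher and 7.04% called lower. The genes furthest above the median gene were Rpl10, with a ratio of 1.90 (1.27 to 2.84), and G6pdx, with 1.90 (1.47 to 2.44). Ogt (1.43, 1.16 to 1.76) and Ubl4a (1.35, 1.03 to 1.76) also had intervals above 1, as did 27.2% of all genes tested. Lamp2 was the gene with an interval below 1 (0.686, 0.563 to 0.832), as in 26.2% of the genes tested. Hprt had 0.833 (0.682 to 1.01). At the few sites listed in all 3 libraries Rpl10 and Hprt turned direction (log2 -0.43 and 0.84). The median log2 ratio of the 10 genes was 0.28, where that of all genes is 0 by construction. By library totals, G6pdx and Rpl10 passed the 2-fold limit (log2 1.01 and 1.02) and the split over all genes moved from 81 higher and 76 lower to 105 and 69.

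Between MidK and MEF, again 0 of 10 were called, against 9.92% of 1079 genes higher and 11.8% lower. Ogt (1.92, 1.5 to 2.45), Pdha1 (1.89, 1.44 to 2.44) and Hprt (1.62, 1.31 to 1.98) had intervals above 1, the case for 25.6% of all genes tested. Lamp2 had an interval below 1 (0.725, 0.553 to 0.938), the case for 22.2%. Rps4x (0.621), Gla (0.649) and G6pdx (0.664) had intervals that held 1 and turned direction under other windows or thinning: log2 0.54 for Rps4x with 10 kb on both sides, and 0.18 for Gla and 0.03 for G6pdx with the gene body alone. Rpl10 had 1.54 (0.848 to 2.66), which turned to log2 -0.12 with 10 kb on both sides. Pgk1 had a ratio of 1.06 whose log2 changes sign when library totals are used. The median log2 ratio of the 10 was 0.01. Scaled to library totals, G6pdx, Gla and Rps4x were called lower (log2 -1.03, -1.07 and -1.13), and calls over all genes moved from 107 higher and 127 lower to 49 and 251.

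MidK differed from LowK at 1 of the 10 genes, against 8.95% of 905 genes called higher and 14.3% called lower. G6pdx was lower in MidK, with a ratio of 0.356 (0.204 to 0.590) from 18 against 108 reads. The call was kept under each alternative tried but the sites listed in all 3 libraries, which hold 1 G6pdx read in each library. Ikbkg, a signalling gene whose body overlaps the same window, also met the rule for lower, with a ratio of 0.478 (0.333 to 0.671). The windows of G6pdx and Ikbkg overlap, so both ratios can share reads. Gla had 0.529 (0.316 to 0.851), and an interval below 1 was seen for 23.3% of the genes tested. Hprt (1.98, 1.54 to 2.55), Pdha1 (1.64, 1.2 to 2.22) and Ogt (1.37, 1.04 to 1.80) had intervals above 1, the case for 28.3%. Hprt turned to log2 -0.27 at the sites listed in all 3 libraries. The median log2 ratio of the 10 was -0.17. By library totals, Gla, Rps4x and Ubl4a were called lower beside G6pdx (log2 -1.48, -1.23, -1.03 and -2.05), the signs of Ogt and Lamp2 turned, and calls over all genes moved from 81 higher and 129 lower to 25 and 282.

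G6pdx, Ubl4a and Rpl10 are neighbours, with gaps of 40.9 kb between G6pdx and Ubl4a and 92.6 kb between Ubl4a and Rpl10. In all 3 the level was highest in LowK, with LowK over MEF ratios of 1.90, 1.35 and 1.90, and their MidK over LowK ratios were 0.356, 0.722 (0.452 to 1.12) and 0.826 (0.443 to 1.48). This was not particular to the neighbours, since the level was also highest in LowK at Pgk1, Gla, Rps4x and Ogt. MidK over LowK ratios were also below 1 at Gla (0.529), Rps4x (0.626) and Pgk1 (0.960), and above 1 at Hprt, Pdha1, Lamp2 and Ogt. Rpl10 turned direction between MidK and LowK with the gene body alone (log2 0.19).

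**Figure D2:**
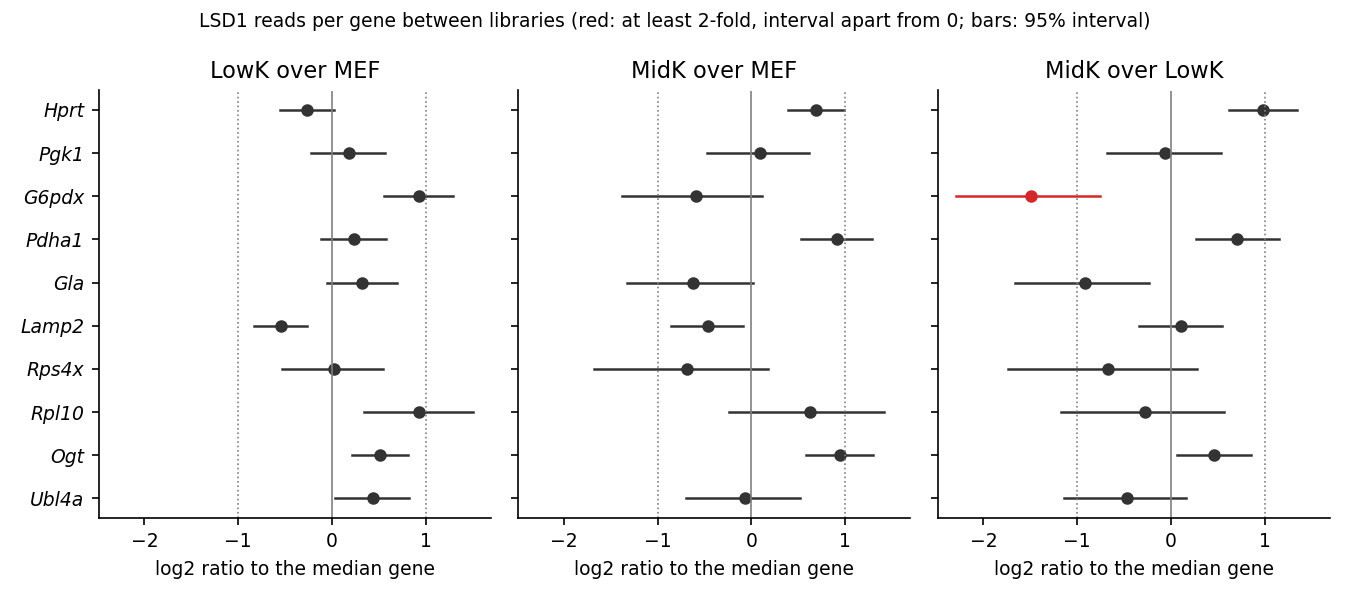
Log2 ratio of read shares relative to the median gene (x axis) for the 10 genes (rows) in the 3 comparisons (panels), with 95% intervals, and dotted lines at 2-fold. G6pdx in MidK over LowK (ratio 0.356) is the one called gene, drawn in red.

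Within the windows, reads gathered at the start site in LowK more than in MEF. The 1 kb on either side of the annotated start held 244 of the 2412 MEF reads, or 10.1% (8.94 to 11.4), and 192 of the 949 LowK reads, or 20.2% (17.7 to 22.9). For MidK it held 65 of 489 reads, or 13.3% (10.4 to 16.6), and these windows make up 6.47% of the length. Hprt carried a large part of this: without it the shares were 9.73%, 15.6% and 6.28%, and MidK then lay below MEF rather than above it, with overlapping intervals both ways. Counting 1 site per 300 bp once each, the shares were 7.86%, 10.5% and 8.51%.

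The gathering at starts was not particular to these 10 genes. Over 807 other protein-coding genes the shares were 4.08%, 9.43% and 6.79% for 3.41% of the length. Over the 229 of them with at least 10 CG dinucleotides in the promoter and a window length within the range of the 10, they were 8.81%, 20.3% and 16.3% for 6.67% of the length. Start share was higher in LowK than in MEF at 7 of the 10 genes and at 69.7% of 580 other protein-coding genes. The intervals lay apart, with LowK higher, at 3 of the 10 (Hprt, G6pdx and Pdha1), against 29.1% of those 580, and with LowK lower at 0 of the 10, against 2.76%. Between MidK and MEF they lay apart at Hprt alone, with MidK higher, against 19.3% of 384 other genes higher and 2.86% lower. Between MidK and LowK they lay apart at Rpl10 alone, with MidK lower, against 2.39% of 376 other genes higher and 9.57% lower.

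**Figure D3:**
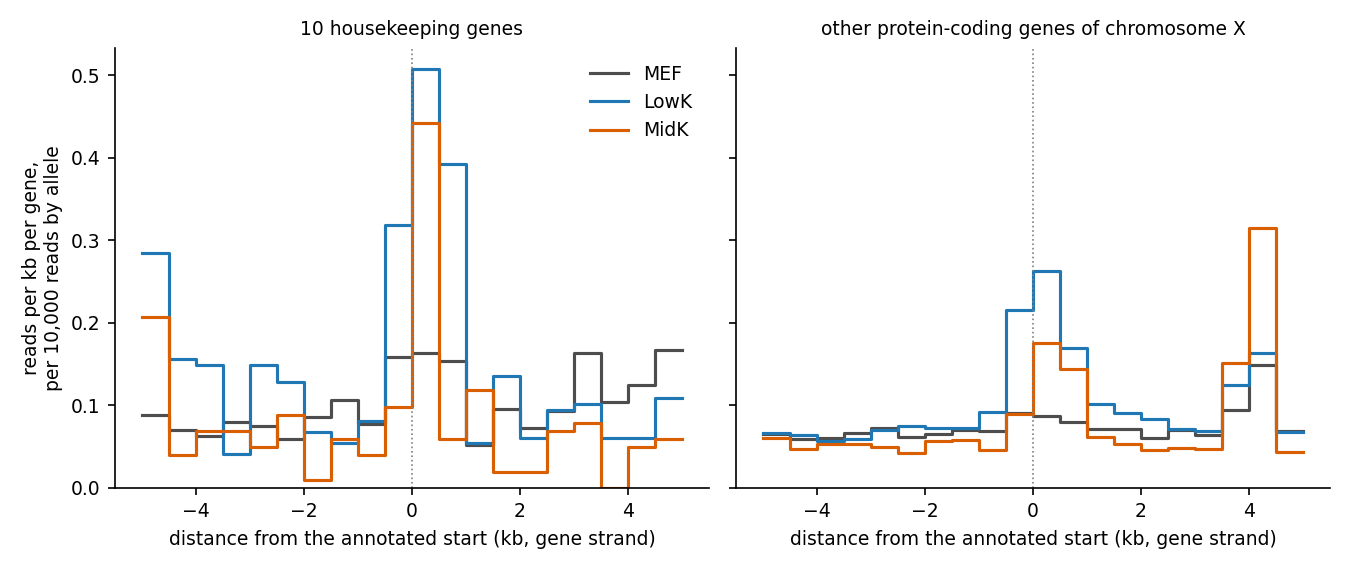
LSD1 reads per kb and gene, per 10000 reads by allele (y axis), in bins of 500 bp by distance from the annotated start on the strand of the gene (x axis), for the 10 genes (left) and 807 other protein-coding genes (right), 1 line per library. In the first 500 bp after the start the 10 genes reach 0.508 in LowK, 0.443 in MidK and 0.163 in MEF. The peak 4 to 4.5 kb after the start in the right panel rests on Cldn34d, which holds 84.1% of its MidK reads.

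Hprt had the highest start share of the 10 genes in both day 20 libraries when all listed sites were used, but not with 1 site per 300 bp. Its start window, 4.59% of the length, held 53 of 449 MEF reads (11.8%, 8.97 to 15.2), 65 of 133 LowK reads (48.9%, 40.1 to 57.7) and 42 of 123 MidK reads (34.1%, 25.8 to 43.2). These reads lay at 14, 17 and 12 sites, which leave 4, 3 and 3 when 1 site per 300 bp is kept, and on those sites the shares were 9.55%, 26.8% and 21.4%. On such sites Ubl4a (48.6%) and Rpl10 (36.8%) were above Hprt in LowK, and Ubl4a (33.3%) and Pdha1 (22.9%) in MidK. The 1 kb centred on the start was the richest kb of the gene in LowK (35 reads) and MidK (37 reads), and 28 of the 45 MidK reads in the first 500 bp after the 10 starts were from Hprt. In MEF the richest kb of Hprt lay 36 kb downstream, beyond the 3′ end (44 reads, against 34 at the start).

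At G6pdx the start window held 7 of 160 MEF reads (4.38%, 1.78 to 8.81), 22 of 108 LowK reads (20.4%, 13.2 to 29.2) and 0 of 18 MidK reads, which allows a share of up to 16.7% by the limit of 3 counts of the total used for zeros, and 18.5% by the Clopper-Pearson interval. The start was the richest kb of this gene in LowK, with 18 reads. Pdha1 had 15 of 244 (6.15%, 3.48 to 9.94), 26 of 102 (25.5%, 17.4 to 35.1) and 12 of 78 (15.4%, 8.21 to 25.3), and its start was the richest kb in LowK, with 25 reads. The start of Gm39547 lies 183 bp from that of Pdha1, and the reads of both cannot be told apart. The same holds for Lamp2 and LOC115489130 (218 bp between starts) and for Gla and Hnrnph2 (174 bp, opposite strands).

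The start window of Ubl4a, 15.6% of the length, held 43 of 173 MEF reads (24.9%, 18.6 to 32.0), 31 of 83 LowK reads (37.3%, 27.0 to 48.7) and 4 of 28 MidK reads (14.3%, 4.03 to 32.7). In MEF the start share of Ubl4a exceeded its share of the length. So did those of Lamp2 (8.94% for 2.99% of the length), Hprt (11.8% for 4.59%), Rps4x (24.6% for 13.8%), Ogt and Rpl10. Those of Pgk1, G6pdx, Pdha1 and Gla lay below. In LowK and MidK the richest kb of Ubl4a lay 5 kb upstream instead, with 21 and 15 reads. Its window also overlaps Gm44504 and Slc10a3, and reads were not assigned between these genes. Of the 10 windows, 7 overlap another gene. Rpl10 had 11 of 65 (16.9%), 15 of 44 (34.1%, 20.5 to 49.9) and 0 of 17 reads at the start, the last allowing a share of up to 17.6% by the limit of 3 counts and 19.5% by the Clopper-Pearson interval. Rps4x had 28 of 114 (24.6%), 12 of 41 (29.3%) and 1 of 12 (8.33%), with overlapping intervals.

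Lamp2 ran the other way. Its start window held 48 of 537 MEF reads (8.94%, 6.66 to 11.7), 5 of 131 LowK reads (3.82%, 1.25 to 8.68) and 3 of 66 MidK reads (4.55%, 0.947 to 12.7), with overlapping intervals. Ogt had 15 of 276, 8 of 140 and 0 of 90 reads at its start, the last allowing a share of up to 3.33% by the limit of 3 counts and 4.02% by the Clopper-Pearson interval. Pgk1 (13, 4 and 2 reads) and Gla (11, 4 and 1 reads) had few reads at the start in every library.

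Taken as ratios of start reads relative to the median gene, 3 genes had the 30 reads needed for LowK over MEF. Hprt (3.45, 2.36 to 5.06) and Ubl4a (2.03, 1.24 to 3.29) were called higher and Lamp2 lower (0.293, 0.0911 to 0.733), against 52% of 152 testable starts called higher and 17.8% called lower. For MidK over MEF Hprt was called higher (4.68, 3.04 to 7.14), against 21.8% of 110 starts higher and 29.1% lower. For MidK over LowK Ubl4a was called lower (0.276, 0.0708 to 0.781), against 6.1% of 82 higher and 48.8% lower, while Hprt had 1.38 (0.915 to 2.07). The median gene here is that of the whole windows. On this scale the testable starts had a median ratio of 2.26 for LowK over MEF, above that of Ubl4a. The median was 0.535 for MidK over MEF and 0.441 for MidK over LowK.

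**Figure D4:**
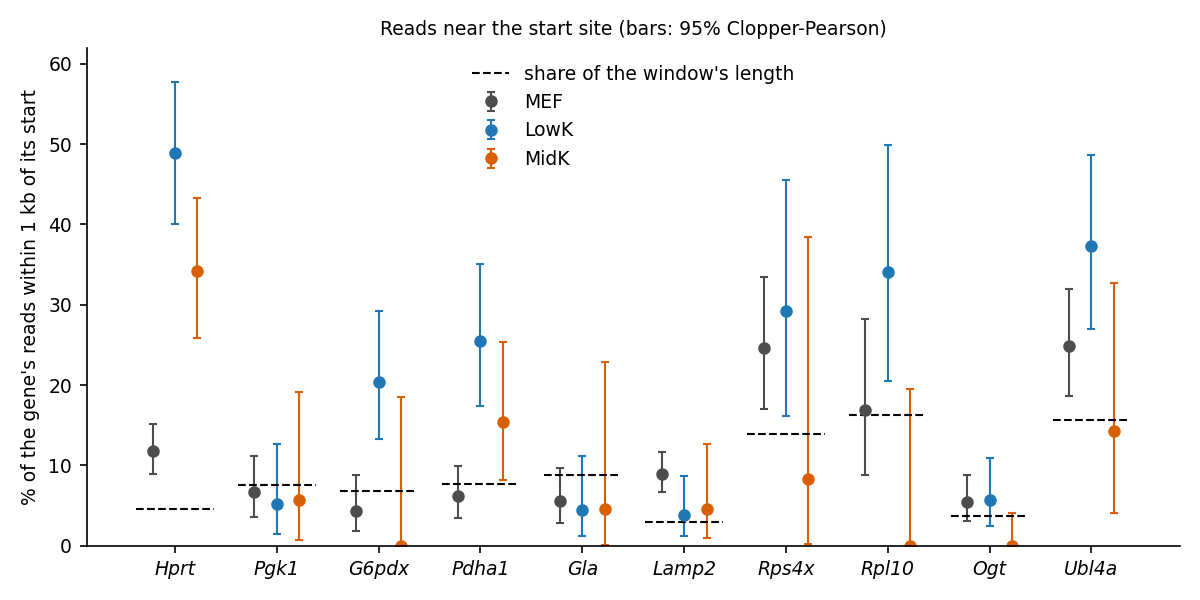
Percent of the reads of each gene that lie within 1 kb of its annotated start (y axis) for the 10 genes (x axis), 1 point per library with its 95% Clopper-Pearson interval, and the share of the window length as a dashed line. Hprt rises from 11.8% in MEF to 48.9% in LowK and 34.1% in MidK, and G6pdx, Rpl10 and Ogt have no start read in MidK.

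No site is listed without a variant read. A site with 1 read is thus always a variant site, and the B6 share at listed sites depends on depth. B6 shares are therefore set beside that of the same library and not compared between libraries. Depth also differs between genes within a library, so the library value is not matched for depth. Over the 10 genes, B6 reads made up 14.8% of the MEF reads (357, library 14.2%), 8.85% of the LowK reads (84, library 9.85%) and 21.1% of the MidK reads (103, library 18.9%). Of the 30 values of a gene in a library, 27 had intervals that held the value of the whole library. The share of all genes with such intervals was not computed, so this count cannot be set against the chromosome. Over all genes with at least 30 reads in the library, the quartiles of the B6 share were 10.9% and 16.7% in MEF, 5.82% and 12.3% in LowK, and 10.2% and 23.6% in MidK.

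The exceptions were Hprt in MidK, Pgk1 in LowK and Pdha1 in LowK. At Hprt the B6 share was 14.5% for MEF, 12.0% for LowK and 31.7% for MidK (23.6 to 40.7), the last above the 18.9% of that library. Pgk1 had 19.2% in LowK (11.2 to 29.7), above 9.85%. Pdha1 had 17.2%, 2.94% (0.611 to 8.36) and 21.8%, with LowK below its library. Hprt had 2.41 reads per site in MidK, against 1.71 over that library. In LowK, Pgk1 had 1.66 and Pdha1 1.65, against 1.58 over the library. The effect of these depths on the B6 share was not tested.

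The Hprt value in MidK rests in part on a pair of C-to-G sites 7 bp apart, 260 and 267 bp after the start. The pair holds 16 of the 39 B6 reads of Hprt in MidK. There MEF had 5 variant reads at both and no B6 read, LowK had 5 and 6 variant reads and no B6 read, and MidK had 7 B6 against 2 variant reads and 9 against 3. Sites this close can be covered by the same reads. Without the pair, Hprt had 22.5% B6 reads in MidK (14.9 to 31.9), still above the 18.9% of the library but with an interval that holds it. The pair was picked after its reads were seen, and leaving out sites with mostly B6 reads lowers the share by construction. At the Ogt site 23778 bp after its start, a G-to-T difference in the gene body, the reads were 2 B6 and 4 variant in MEF, and 6 and 11 variant reads with no B6 read in LowK and MidK.

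**Figure D5:**
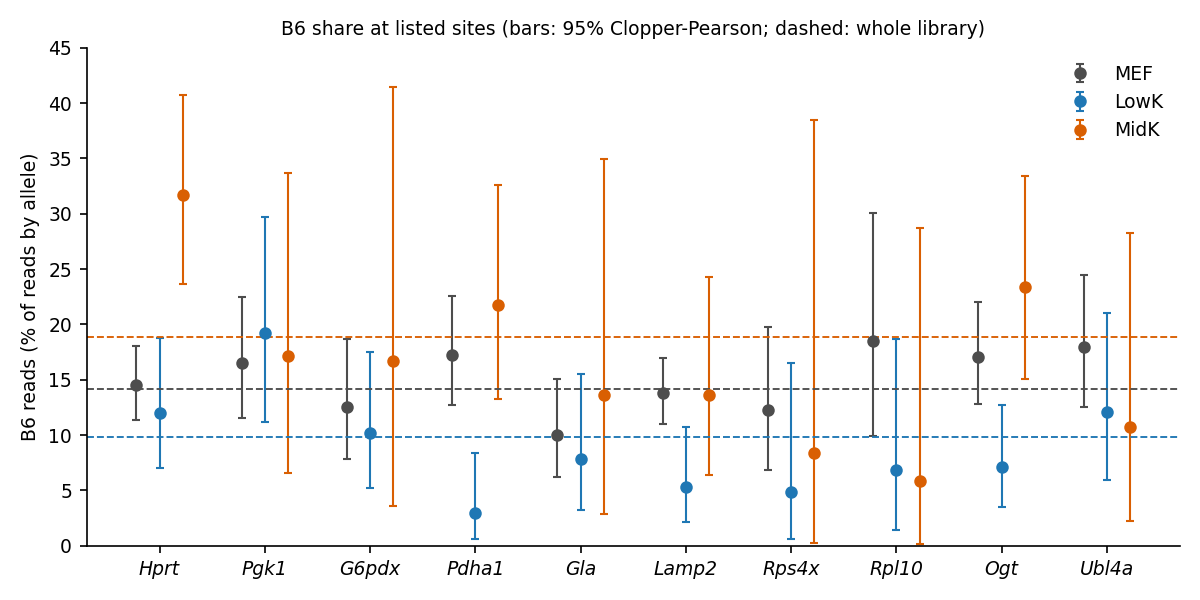
Percent of reads by allele that carry the B6 base (y axis) at the listed sites of the 10 genes (x axis), 1 point per library with its 95% Clopper-Pearson interval, and the value of the whole library as a dashed line. Hprt in MidK (31.7%) and Pgk1 in LowK (19.2%) lie above their library, and Pdha1 in LowK (2.94%) below.

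Where both alleles had 2 or more reads (1 site per 300 bp, 5 to 20 reads, no tie), variant reads outnumbered B6 reads at 18 of 40 MEF sites (45%, 29.3 to 61.5), 4 of 6 LowK sites (66.7%, 22.3 to 95.7) and 3 of 11 MidK sites (27.3%, 6.02 to 61.0). Over all genes it was 47.5%, 47.2% and 24.3%, inside those intervals. Of the sites with 2 or more reads, 384 of 599 MEF sites (64.1%, 60.1 to 68.0), 163 of 218 LowK sites (74.8%, 68.5 to 80.4) and 39 of 97 MidK sites (40.2%, 30.4 to 50.7) had no B6 read. The same over all genes was 66.6%, 70.8% and 50.6%. At exactly 3 reads, a matched depth, the 10 genes had 52.8% of 163 sites, 65.3% of 49 and 26.3% of 19, and all genes had 58.4%, 52.4% and 33.2%. At this depth, which was chosen after seeing the data, LowK lay above MEF for the 10 genes and below it over all genes. At 2 or more reads LowK lay above MEF in both. The LowK value of the 10 genes at 3 reads rests on 49 sites, and no interval is given for it. Whether the sites without a B6 read lack the B6 base or were only sampled that way was not tested.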

How the data were processed

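Chromatin immunoprecipitated with an LSD1 antibody was sequenced from 3 samples, 1 per group, grouped by sample title. The submitters' processing notes name BWA and the build mm10, and the series' design text names bcftools mpileup for the calling of variants by allele. Their versions, read filters and duplicate handling were not given in the sources used here. Per the file headers, the deposited values are, for every position, a depth count, a count of B6 reads and a count of variant reads. A deposited score for the reliability of a call served in 1 alternative only. No label names the strain behind the variant base.

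Entries of more than 1 base (6.97% in MEF, 6.13% in LowK, 5.56% in MidK) and positions listed more than once (8 in MEF, 3 in LowK) were left out. Genes and promoters came from RefSeq tables of GRCm38.p6, the build called mm10; the B6 base equalled the RefSeq promoter base at 1094 of 1094 MEF, 972 of 972 LowK and 364 of 364 MidK sites. Ratios and intervals were computed with Python 3.11.15, numpy 2.4.6, scipy 1.17.1 and pandas 2.3.3, figures were drawn with matplotlib 3.10.9, and the script was tested on simulated data. Windows of neighbouring genes can share reads. The 10 genes, the lists and the measures were chosen with earlier results of these data known. Genes named are the 10, and listed genes that met the difference rule. Ikbkg, Gm39547, LOC115489130, Hnrnph2, Gm44504, Slc10a3 and Cldn34d were named after their values or positions were seen. A zero count is given the limit of 3 counts of the total. Alternatives changed the scaling, window, thinning, site set, depth limit, reliability and fold.

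Chosen lists of other X-linked genes were carried along: metabolism, mitochondria, lysosome, translation, protein quality control, genes that escape X inactivation, and fibroblast, pluripotent or germline, immune and neural genes.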

Additional observations from a re-analysis of the deposited data

How the results depend on the processing

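With 1 library per group, intervals cover counting error only. Of 116 values recomputed for the summed results, 81 stayed within 1.5 times the count or within the interval, and 35 moved. Of 291 values for single genes 210 stayed the same, 48 moved, 32 gained a call and 1 lost it (G6pdx). Calls of the 10 genes moved as follows. With library totals, 2 were higher in LowK than in MEF, against 9.73% of all genes tested. By the same scaling 3 were lower in MidK than in MEF (all genes 23.3%) and 4 lower in MidK than in LowK (31.2%). For MidK over MEF, the gene body alone gave 2 higher (Hprt and Ogt, 8 tested), against 10.3% of all genes. With 10 kb on both sides 1 was higher (Pdha1), against 8.65%. Keeping 1 site per 300 bp with all its reads gave 1 lower (G6pdx), against 3.62%. The last setting gave 1 higher for MidK over LowK (Hprt, 8 tested), against 3.89%. At sites listed in all 3 libraries, 0 were lower in MidK than in LowK, with 1 gene testable, against 12.5% of the 16 genes tested. Including insertions and deletions, 2 were lower there, with Rps4x added, against 14.4% of all genes. With reliability of at least 20, 3 were higher in LowK than in MEF (all genes 16.9%) and 4 higher in MidK than in MEF (17.5%). Between MidK and LowK 2 of 8 tested were higher (all genes 18.8%) and 2 lower (22.3%). In the same order, a fold of 1.5 gave 2 higher (all genes 19.9%), 3 higher (19.1%), and 2 higher (22.5%) with 2 lower (21.0%). The causes of these shifts were not tested, other than the smaller number of genes or the wider limit that a setting itself brings.

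For the variant majority, at least 1 read of each allele gave 64.7% in MEF, and sites that MEF also lists gave 0% in MidK, from 2 sites. Sites with variant reads only were 25.9%, 38.1% and 4.76% at 5 or more reads in MEF, LowK and MidK, and 52.8%, 65.3% and 26.3% at exactly 3 reads (all genes 58.4%, 52.4% and 33.2%). The start share within 500 bp was 5.89% in MEF and 12.9% in LowK. Counting 1 site per 300 bp once gave 7.86%, 10.5% and 8.51%, and with all its reads 16.1% in LowK. With reliability of at least 20 it was 28.5% in LowK and 19.7% in MidK, and without Hprt 15.6% and 6.28%. The start settings, the one without Hprt, the exact depth of 3 reads and the removal of the Hprt pair of sites were chosen after seeing the data. No paired analysis was possible because each group holds 1 library. Depth limits all of this, at 2.35, 1.73 and 1.88 reads per site over the 10 genes.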

Other observations

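The other X-linked housekeeping genes on the lists numbered 54. Between LowK and MEF 3 (5.56%) were called higher and 0 lower, against 7.51% and 7.04% of all genes tested, with a median log2 ratio of 0.03: Rpl39, a protein of the large ribosomal subunit (2.66, 2.07 to 3.43), Ssr4, a subunit of the translocon-associated complex (2.58, 1.87 to 3.55), and Timm8a1, a mitochondrial import chaperone (2.0, 1.55 to 2.59). Between MidK and MEF 1 was higher (1.85%, against 9.92% of all genes), Rpl39 again (2.57, 1.85 to 3.53), and 3 were lower (5.56%, against 11.8%): the complex I subunit gene Ndufa1 (4 against 96 reads), the sterol synthesis gene Nsdhl (23 against 289) and Idh3g, a subunit of isocitrate dehydrogenase (7 against 103). Between MidK and LowK 7 of 53 were lower (13.2%, against 14.3%), Ndufa1, Aifm1, Rbmx, Ids, Idh3g, Ssr4 and Dkc1, and 1 was higher (1.89%, against 8.95%), the mitochondrial carrier gene Slc25a14 (2.03, 1.5 to 2.73). By library totals, chosen for these lists after seeing the data, Rpl39 in MidK over MEF (log2 0.92) and Slc25a14 (0.46) were no longer called. The counts were then 4 higher and 0 lower for LowK over MEF, 0 and 8 for MidK over MEF, and 0 and 12 for MidK over LowK.

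By list, LowK over MEF called 0 of 15 metabolism genes, 1 of 12 mitochondrial genes, 0 of 7 lysosomal genes, 1 of 10 translation genes and 1 of 10 protein quality control genes, each higher. The median log2 ratios were -0.10, 0.08, -0.17, 0.46 and -0.08. Among genes that escape X inactivation 1 of 11 was higher (median -0.17). Of fibroblast genes 1 of 12 was higher and 1 lower (median -0.36), and of pluripotent or germline genes 7 of 10 were higher (median 1.10). Immune genes had 1 of 9 higher (median 0.37) and neural genes 0 of 8 (median -0.49). Over all genes tested 7.51% were higher and 7.04% lower. In MidK over MEF, 3 of 10 pluripotent or germline genes were higher and 1 lower (median 0.21), against 9.92% and 11.8% of all genes. In MidK over LowK, 1 of 9 tested was higher and 3 lower (median 0.002), against 8.95% and 14.3%. The other lists of this paragraph are given for LowK over MEF only. Start share over 807 other protein-coding genes was 4.08% for MEF, 9.43% for LowK and 6.79% for MidK. It was highest in LowK for the translation genes (16.1%, 27.2% and 16.3%), the metabolism genes (5.25%, 17.0% and 5.66%), the mitochondrial genes (8.19%, 14.9% and 11.3%) and the protein quality control genes (3.81%, 10.6% and 7.99%). This was not particular to housekeeping lists. LowK was also highest for the fibroblast genes (1.80%, 7.47% and 1.76%) and the genes that escape X inactivation (4.42%, 9.33% and 4.39%). The same held, with overlapping intervals, for the immune genes (4.86%, 6.08% and 4.84%) and the neural genes (0.605%, 1.17% and 0.677%). Start share was highest in MidK, with intervals that overlapped those of LowK, for the lysosomal genes (2.73%, 4.97% and 5.49%) and the pluripotent or germline genes (6.11%, 12.5% and 13.4%).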
